A study of Homo sapiens with 12 samples.

Results

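The response of PC-3M cells to knockdown of KMT9a was read across all genes. PC-3M cells are a variant of PC-3, a castration-resistant human prostate cancer line, selected for spread to other organs. The members are the 3 PC-3M libraries with KMT9a siRNA and the 3 PC-3M libraries with control siRNA, 6 of the 12 libraries of the series; the other 6 are MCF10A cells and were not used here. The 2 groups share the cell line and passage 11 and differ in the siRNA, and dose, sequence and time of the siRNA are not given in the sources used here. Total RNA was extracted with Trizol and sequenced. Each of 24359 gene symbols was represented by the transcript row with the highest mean over the 6 libraries, and 14958 symbols held enough reads to be tested. The labels call the libraries biological replicates without saying whether cultures were separate, so a p-value here reflects the variation among these 6 libraries, which may be technical.

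KMT9a is the catalytic subunit of a histone methyltransferase. It is encoded by N6AMT1 and acts as a heterodimer with TRMT112, a small activating protein that several other methyltransferases of RNA and protein also use. The complex places a single methyl group on a lysine of histone H4, the mark named in the title of the series together with metabolism and proliferation. Knockdown with an siRNA lowers the mRNA rather than removing the gene.

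Between 40236218 and 53401602 read ends fell in genes in each library, 17067 to 17540 genes had reads, and 4.36% to 5.76% of reads came from the top 10 genes. Levels are given as CPM, the reads of a gene scaled to an equal total in every library, with library factors from the trimmed mean of M-values (TMM), and are not divided by gene length. Epithelial and PC-3 markers were present in both groups, with KRT8 at 335 CPM with KMT9a siRNA and 147 CPM with control siRNA and VIM at 1747 CPM with KMT9a siRNA and 993 CPM with control siRNA. CD44 was higher as well, at 559 CPM with KMT9a siRNA and 344 CPM with control siRNA. HOXB13, at 126 CPM with KMT9a siRNA and 270.1 CPM with control siRNA, EPCAM, at 23.3 CPM with KMT9a siRNA and 41.1 CPM with control siRNA, and KRT18, at 547 CPM with KMT9a siRNA and 590.2 CPM with control siRNA, were lower. The androgen-dependent genes KLK3 and KLK2 and FOLH1 had at most 3 read pairs in any library. Of the markers of other cell types LCP2, VWF and DCN had no read in any of the 6 libraries, while others were read: the fibroblast marker PDGFRA stood at 11.5 ± 0.772 CPM with KMT9a siRNA and 9.28 ± 0.231 CPM with control siRNA, and the breast epithelial marker GATA3 at 2.44 ± 0.15 CPM with KMT9a siRNA and 4.23 ± 0.504 CPM with control siRNA (SD, n = 3). Of the 4 tested breast epithelial markers 2 were higher and 2, GATA3 among them, were lower. Scaled by library totals, the summed breast epithelial markers, mostly GATA3, ranged from 3.14 to 3.9 CPM with KMT9a siRNA. With control siRNA they ranged from 4.98 to 6.15 CPM. On the same scale, the summed leukocyte markers ranged from 50.1 to 62.2 CPM with KMT9a siRNA and from 47.1 to 52.6 CPM with control siRNA, nearly all from the lysosomal gene CD68. The summed fibroblast markers, mostly COL1A1, ranged from 39.5 to 47.4 CPM with KMT9a siRNA and from 62.6 to 64.6 CPM with control siRNA. The summed endothelial markers, mostly PECAM1, ranged from 1.94 to 2.26 CPM with KMT9a siRNA and from 0.318 to 0.661 CPM with control siRNA. KMT9a siRNA replicate 2 stood apart from its group. The SD of the log2 difference between 2 libraries was 0.123 for KMT9a siRNA replicates 1 and 3, 0.201 and 0.227 for pairs with replicate 2, and 0.0946 to 0.107 between control libraries, while pairs across the groups lay between 0.886 and 0.920. In these bulk libraries fewer cells of a kind and less RNA per cell cannot be told apart.

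N6AMT1, on the minus strand of chromosome 21 (hg19, 30244513 to 30257693), was at 3.01, 2.59 and 2.83 CPM in the KMT9a siRNA libraries, against 11.5, 12.0 and 11.0 CPM in the control siRNA libraries. The groups did not overlap, and the log2 fold change was -2.02 (SE 0.107, limma, Benjamini-Hochberg adjusted p = 3.47e-09). TRMT112, the partner subunit gene, stood at 104, 115 and 106 CPM with KMT9a siRNA and at 159, 150 and 153 CPM with control siRNA, again without overlap, and fell by 0.51 on the log2 scale.

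Most tested genes changed, and 11520 (77.0%) had groups that did not overlap. At an adjusted p under 0.05, 74.5% of the 14958 tested genes passed, 37.2% (5564) higher and 37.3% (5575) lower, and by at least 2-fold 12.3% were higher and 11.8% lower. Log2 fold changes are of the scaled value plus 1, KMT9a siRNA over control siRNA, and understate the change of low genes. Directions are relative to the TMM scaling: by library totals alone the median over all tested genes was -0.17 on the log2 scale, against 0.00099 with TMM, and 4385 genes were higher and 6821 lower. The shares of all tested genes are the background for every gene group described here. They vary with transcript length, from 26.6% higher in the shortest of 5 equal groups to 49.8% in the longest. The gene groups were not matched for length.

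The 12 largest gains and 12 deepest losses were named by a rule that required groups without overlap and a mean of at least 5 CPM. The rule also left out genes named in an earlier description of these data. Genes outside it could change more, such as PRB2 (5.51) and CGA (-5.97), described below. EPHA7, an ephrin receptor tyrosine kinase gene (hg19 chromosome 6, 93949740 to 94129300, minus strand), stood at 196, 161 and 208 CPM with KMT9a siRNA and at 8.72, 8.13 and 8.09 CPM with control siRNA. ADAM19, which encodes a membrane-anchored metalloprotease, stood at 349, 367 and 317 CPM in KMT9a siRNA libraries and at 21.1, 21.4 and 23.8 CPM in control siRNA libraries. CAV1, the gene of the main caveolar coat protein caveolin-1 (chromosome 7, 116165063 to 116201239, plus strand), stood at 91.9, 89.8 and 97.6 CPM with KMT9a siRNA and at 6.56, 7.24 and 7.42 CPM with control siRNA. Their log2 fold changes were 4.49, 3.96 and 3.71. The LIM domain protein gene ZNF185 rose to 121 ± 0.832 CPM with KMT9a siRNA, against 6.45 ± 0.554 CPM with control siRNA, the phosphatase gene UBASH3B to 122 ± 2.83 CPM with KMT9a siRNA, against 10.01 ± 0.927 CPM with control siRNA, and IGFBP4, which encodes a binding protein of insulin-like growth factors, to 79.6 ± 3.31 CPM with KMT9a siRNA, against 6.31 ± 0.786 CPM with control siRNA (SD, n = 3). SLPI, the gene of a secreted inhibitor of leukocyte elastase, rose by 3.86, and PLXNA2, a semaphorin receptor gene, by 3.96 on the log2 scale. The other 4 gains were IFNE, an epithelial type I interferon gene (3.82), the nuclear corepressor gene HR (4.11), TTC9 (3.95) and ARL14EPL (4.15), all below 15 CPM with KMT9a siRNA. The highest adjusted p among the 12 gains was 5.21e-09 (limma).

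The 12 deepest losses under the same rule included genes of cell division. TK1, the thymidine kinase of the nucleotide salvage pathway (chromosome 17, 76170160 to 76183285), stood at 1.41, 2.45 and 1.70 CPM with KMT9a siRNA and at 25.9, 23.1 and 27.8 CPM with control siRNA. CDK1, which encodes the kinase that drives entry into mitosis, stood at 4.64, 4.28 and 6.78 CPM in KMT9a siRNA libraries and at 58.1, 55.1 and 59.3 CPM in control siRNA libraries. NDC80 and NUF2, which encode subunits of the kinetochore complex that binds microtubules, averaged 1.41 ± 0.293 and 1.82 ± 0.0316 CPM with KMT9a siRNA, against 15.1 ± 0.234 and 19.6 ± 1.18 CPM with control siRNA (SD, n = 3). ANLN and IQGAP3, both coding for actin-binding proteins of dividing cells, fell by 3.43 and 3.48 on the log2 scale, SHCBP1 by 3.67, and MYBL1, a transcription factor gene of the MYB family, by 3.41. The remaining 4 were MYH15, DTD2, KHDC1L and LRRC6. MYH15, a myosin heavy chain gene (chromosome 3, 108099216 to 108248169), was the most abundant of the 12 and stood at 12.8, 9.603 and 13.8 CPM with KMT9a siRNA, against 137, 143 and 146 CPM with control siRNA. DTD2, whose product removes wrongly charged amino acids from tRNA, stood at 5.80, 5.55 and 4.32 CPM with KMT9a siRNA, against 60.2, 60.2 and 61.0 CPM with control siRNA. KHDC1L fell by 3.57 and LRRC6, required for assembly of motile cilia, by 3.45. The highest adjusted p among these 12 genes was 6.93e-10 (limma).

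**Figure D1:**
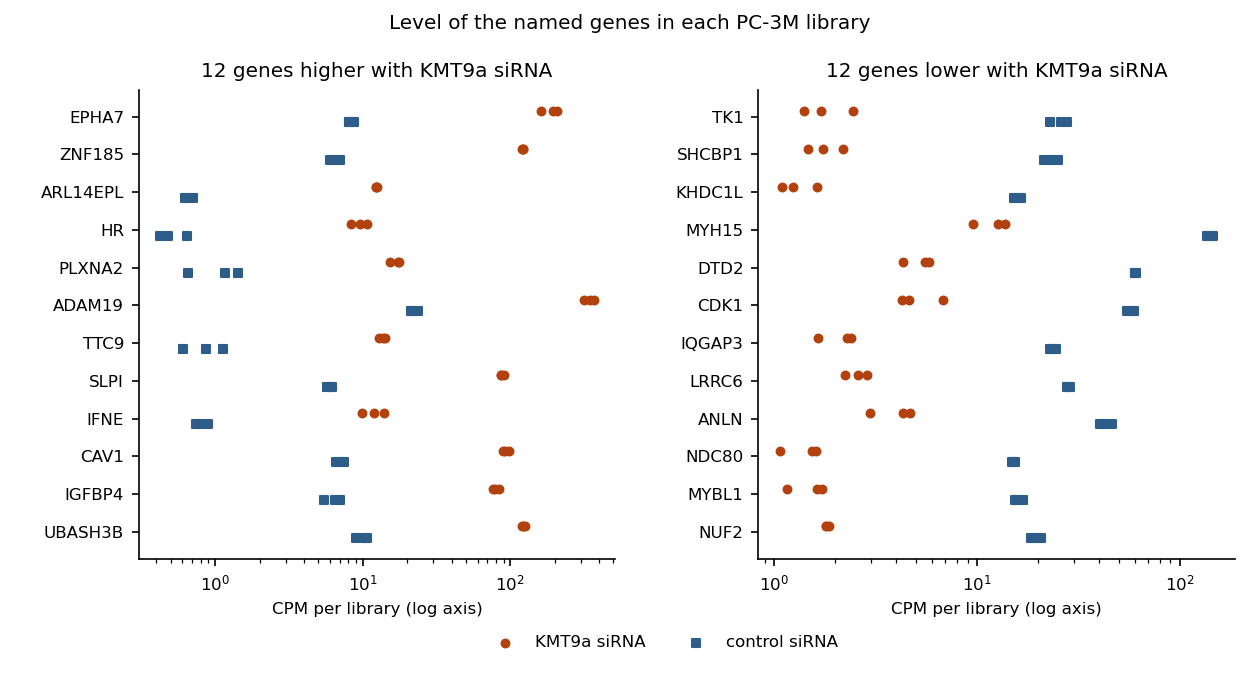
CPM in each library on a log axis for the 12 genes with the largest gains (left) and the 12 with the deepest losses (right) under the naming rule, KMT9a siRNA as circles and control siRNA as squares, 3 libraries each. Circles and squares of a gene do not overlap, which the rule that named the genes required; EPHA7 lies at 161 to 208 CPM with KMT9a siRNA and at 8.09 to 8.72 CPM with control siRNA.

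Genes of the late cell cycle often carry a short element, the cell cycle genes homology region (CHR, letters TTTGAA), near their start, at times with a CCAAT box. Promoters from among the 12 deepest losses are shown because these genes moved together. RefSeq promoters on GRCh38.p14, from 250 bases before to 50 after the start, were examined for 10 of them. The promoters of MYBL1 and LRRC6, which lie on the same chromosome, were not examined, so the counts do not cover all 12 losses. Of the 10 examined, 7 hold TTTGAA on either strand and 4 hold CCAAT. The stretches shown are 160 bases long on the strand of the gene, with capitals at TTTGAA or its reverse complement TTCAAA and at CCAAT or ATTGG.
SHCBP1, chr16:46621350-46621509, minus strand, from 130 bases before to 30 after the start: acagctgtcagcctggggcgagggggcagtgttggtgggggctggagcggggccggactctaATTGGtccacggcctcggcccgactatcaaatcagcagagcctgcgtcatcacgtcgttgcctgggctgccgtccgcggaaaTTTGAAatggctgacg
CDK1, chr10:60778130-60778289, plus strand, from 201 to 42 bases before the start: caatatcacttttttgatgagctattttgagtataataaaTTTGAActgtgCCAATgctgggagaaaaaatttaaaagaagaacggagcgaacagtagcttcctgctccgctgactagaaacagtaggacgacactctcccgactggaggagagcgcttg
IQGAP3, chr1:156572536-156572695, minus strand, from 130 bases before to 30 after the start: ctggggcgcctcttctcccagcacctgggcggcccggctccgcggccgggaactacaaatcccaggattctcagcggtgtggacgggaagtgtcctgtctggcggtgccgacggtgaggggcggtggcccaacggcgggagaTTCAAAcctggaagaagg
ANLN, chr7:36389732-36389891, plus strand, from 130 bases before to 30 after the start: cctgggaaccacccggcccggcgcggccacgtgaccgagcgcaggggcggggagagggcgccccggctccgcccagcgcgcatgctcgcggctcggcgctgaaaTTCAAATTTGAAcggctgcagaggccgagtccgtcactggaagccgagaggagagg
NDC80, chr18:2571427-2571586, plus strand, from 130 bases before to 30 after the start: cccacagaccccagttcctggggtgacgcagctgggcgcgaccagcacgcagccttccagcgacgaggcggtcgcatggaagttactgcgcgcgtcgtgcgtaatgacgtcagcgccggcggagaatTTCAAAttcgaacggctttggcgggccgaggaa
NUF2, chr1:163321824-163321983, plus strand, from 130 bases before to 30 after the start: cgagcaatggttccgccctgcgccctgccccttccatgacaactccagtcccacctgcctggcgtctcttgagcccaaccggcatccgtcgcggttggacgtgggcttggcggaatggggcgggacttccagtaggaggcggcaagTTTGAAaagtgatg
KHDC1L, chr6:73225587-73225746, minus strand, from 250 to 91 bases before the start: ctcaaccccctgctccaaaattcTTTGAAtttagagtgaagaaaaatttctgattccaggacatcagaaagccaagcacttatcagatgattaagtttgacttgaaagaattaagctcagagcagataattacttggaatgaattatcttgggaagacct

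In IQGAP3, NDC80, NUF2, SHCBP1 and ANLN the element lies within 26 bases of the start, in CDK1 161 and in KHDC1L 227 bases before it. Over all genes, TTTGAA occurs in 16.1% of the 1379 matched promoters of genes lower by at least 2-fold and in 10.4% of the 1338 of genes higher by at least 2-fold, against 10.1% of the 11510 matched promoters of tested genes and 15.4% of all 27305 promoters in the RefSeq table. CCAAT occurs in 39.7% of promoters of genes lower and 32.4% of genes higher by at least 2-fold, against 36.6% of tested genes and 35.7% of all promoters in the table. The AP-1 factor site, TGANTCA on either strand, occurs in 6.58% of promoters of genes higher and 4.79% of genes lower by at least 2-fold. The share was 4.89% for tested genes and 7.76% for all promoters in the table. Among the largest gains 9 promoters were examined, without those of HR, SLPI and ARL14EPL, and 1, that of ZNF185, holds the site. The ETS site CCGGAAGT occurs in 4.19% of those of genes higher and 5.29% of genes lower by at least 2-fold, against 8.25% of tested genes and 4.44% of all promoters in the table. Further elements were searched, and not all are given here. The E2F site TTTNNCGC occurs in 7.32% of promoters of genes higher and 10.3% of genes lower by at least 2-fold. Its share was 10.2% for tested genes and 6.9% for all promoters. For the TATA box, TATAAA, the shares were 9.79% and 7.98%, against 6.38% of tested genes and 12.0% of all promoters. A match of letters is a description and shows neither binding nor a cause.

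Some genes were read almost only in 1 group. By the rule of at most 3 read pairs in each library of a group and more than 20 in each library of the other, 9 symbols (0.0369% of all 24359) were on with KMT9a siRNA and 15 (0.0616%) were off. SERPINB3, which encodes a squamous epithelial protease inhibitor, had 34, 30 and 35 read pairs with KMT9a siRNA and 0, 1 and 0 with control siRNA. PRB2, a salivary proline-rich protein gene, had 106, 118 and 64 read pairs with KMT9a siRNA, against 1, 2 and 2 with control siRNA, and the secreted protein gene TINAGL1 had 86, 108 and 61.5 with KMT9a siRNA, against 3, 2 and 1 with control siRNA. C15orf48 and the antisense RNA gene INHBA-AS1 were also on, with 43.5 to 47 and 38 to 46 read pairs; whether reads of INHBA-AS1 come from the gene on the other strand cannot be told apart without strand. CGA, the common alpha subunit of the glycoprotein hormones, had no read in any KMT9a siRNA library and 57, 71 and 89 read pairs with control siRNA, so that it was at least 20.0-fold lower against a floor of 3 read pairs per library, counting error only. MYOC, the myocilin gene, had 3, 3 and 2 read pairs with KMT9a siRNA, against 118, 179 and 150 with control siRNA. NME5, ASB11 and the receptor phosphatase gene PTPRO were off in the same way, with at most 3 read pairs in a KMT9a siRNA library and 31 to 55.5 in control siRNA libraries.

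Functional lists of genes were then read against the background of 37.2% higher and 37.3% lower. Of 32 tested innate sensors and adaptors, which detect microbial or self nucleic acids and lipoproteins, 24 were higher and 3 lower, with a median log2 fold change of 0.89. TLR2, a receptor of bacterial lipoproteins, stood at 32.1, 30.5 and 28.1 CPM with KMT9a siRNA and at 2.80, 2.50 and 2.27 CPM with control siRNA, and rose by 3.57 on the log2 scale. IFIH1, a sensor of double-stranded RNA, stood at 15.9, 15.2 and 15.9 CPM with KMT9a siRNA, against 4.79, 4.28 and 4.53 CPM with control siRNA, and TICAM1, an adaptor of Toll-like receptors, rose by 1.42. The 3 lower members were small changes: TMEM173, the gene of the adaptor STING (-0.30; limma adjusted p = 0.0529 without KMT9a siRNA replicate 1), the inhibitor TOLLIP (-0.28) and the kinase gene IRAK1 (-0.28), the most abundant of the list. Of 53 genes of cytokine receptors, JAK kinases, STAT factors and SOCS inhibitors, 35 were higher and 8 lower (median 0.93). JAK1 stood at 214, 215 and 233 CPM with KMT9a siRNA and at 55.8, 58.2 and 59.1 CPM with control siRNA. JAK2 rose by 1.86 and SOCS3, a feedback inhibitor of the pathway, by 1.73, while the shared receptor subunit gene IL6ST (-0.52), IL6R (-0.57) and IL18 (-0.60) fell. LIF, a ligand of the same receptor family, was the most abundant at 202 ± 25.5 CPM with KMT9a siRNA, against 103 ± 4.66 CPM with control siRNA (SD, n = 3). In the tumour necrosis factor superfamily 16 of 29 genes were higher and 6 lower (median 0.38). The receptor genes TNFRSF1A, TNFRSF11A and TNFRSF25 rose by 1.32, 1.31 and 1.52, and the ligand gene TNFSF15 fell to 7.28 ± 0.942 CPM with KMT9a siRNA, against 23.6 ± 2.92 CPM with control siRNA (SD, n = 3). Leukocyte markers were summed above; their part in these groups was not tested.

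Genes of growth factor and contact signalling were more often higher than lower. Of 16 insulin-like growth factor genes 10 were higher and 3 lower (median 0.72; 10 higher and 5 lower by library totals alone), the higher ones including the binding protein genes IGFBP4 and IGFBP6 (2.40) and HTRA1, a secreted protease gene (2.45). PHLDA2 fell by 1.14 and the insulin receptor gene INSR by 0.29. In the Notch pathway, in which a ligand on a cell activates a receptor on its neighbour, 18 of 33 genes were higher and 10 lower (median 0.48). The ligand gene JAG1 stood at 233, 232 and 225 CPM with KMT9a siRNA and at 42.9, 41.9 and 39.6 CPM with control siRNA, the receptor gene NOTCH2 at 372, 346 and 344 CPM with KMT9a siRNA, against 92.2, 99.7 and 98.7 CPM with control siRNA, and the target gene HEY1 at 93.8, 95.9 and 97.7 CPM with KMT9a siRNA, against 14.3, 15.9 and 16.1 CPM with control siRNA. Ligand, receptor and target were thus higher in every KMT9a siRNA library. The DNA-binding effector gene RBPJ moved the other way, at 51.7 ± 3.64 CPM with KMT9a siRNA and 130 ± 3.63 CPM with control siRNA (SD, n = 3), while NUMB, an inhibitor of Notch, rose by 1.89 and the target gene HES4 fell by 0.61. Among semaphorins, plexins and other axon guidance genes 19 of 38 were higher and 11 lower, with SEMA4B (2.84), SEMA7A (2.83) and the abundant NTN4, a netrin gene (850 ± 27.6 CPM with KMT9a siRNA, against 172 ± 6.19 CPM with control siRNA; SD, n = 3), higher and SEMA3D (-1.86) lower. Of 19 genes of the VEGF, PDGF and angiopoietin families 10 were higher and 6 lower, and 7 higher and 6 lower by library totals alone. PDGFB and THBS1, which encodes an inhibitor of angiogenesis, rose by 1.74 and 1.55, whereas VEGFA fell by 0.42 and the VEGF receptor gene KDR fell to 8.13 ± 0.299 CPM with KMT9a siRNA, against 44.2 ± 4.06 CPM with control siRNA (SD, n = 3).

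**Figure D2:**
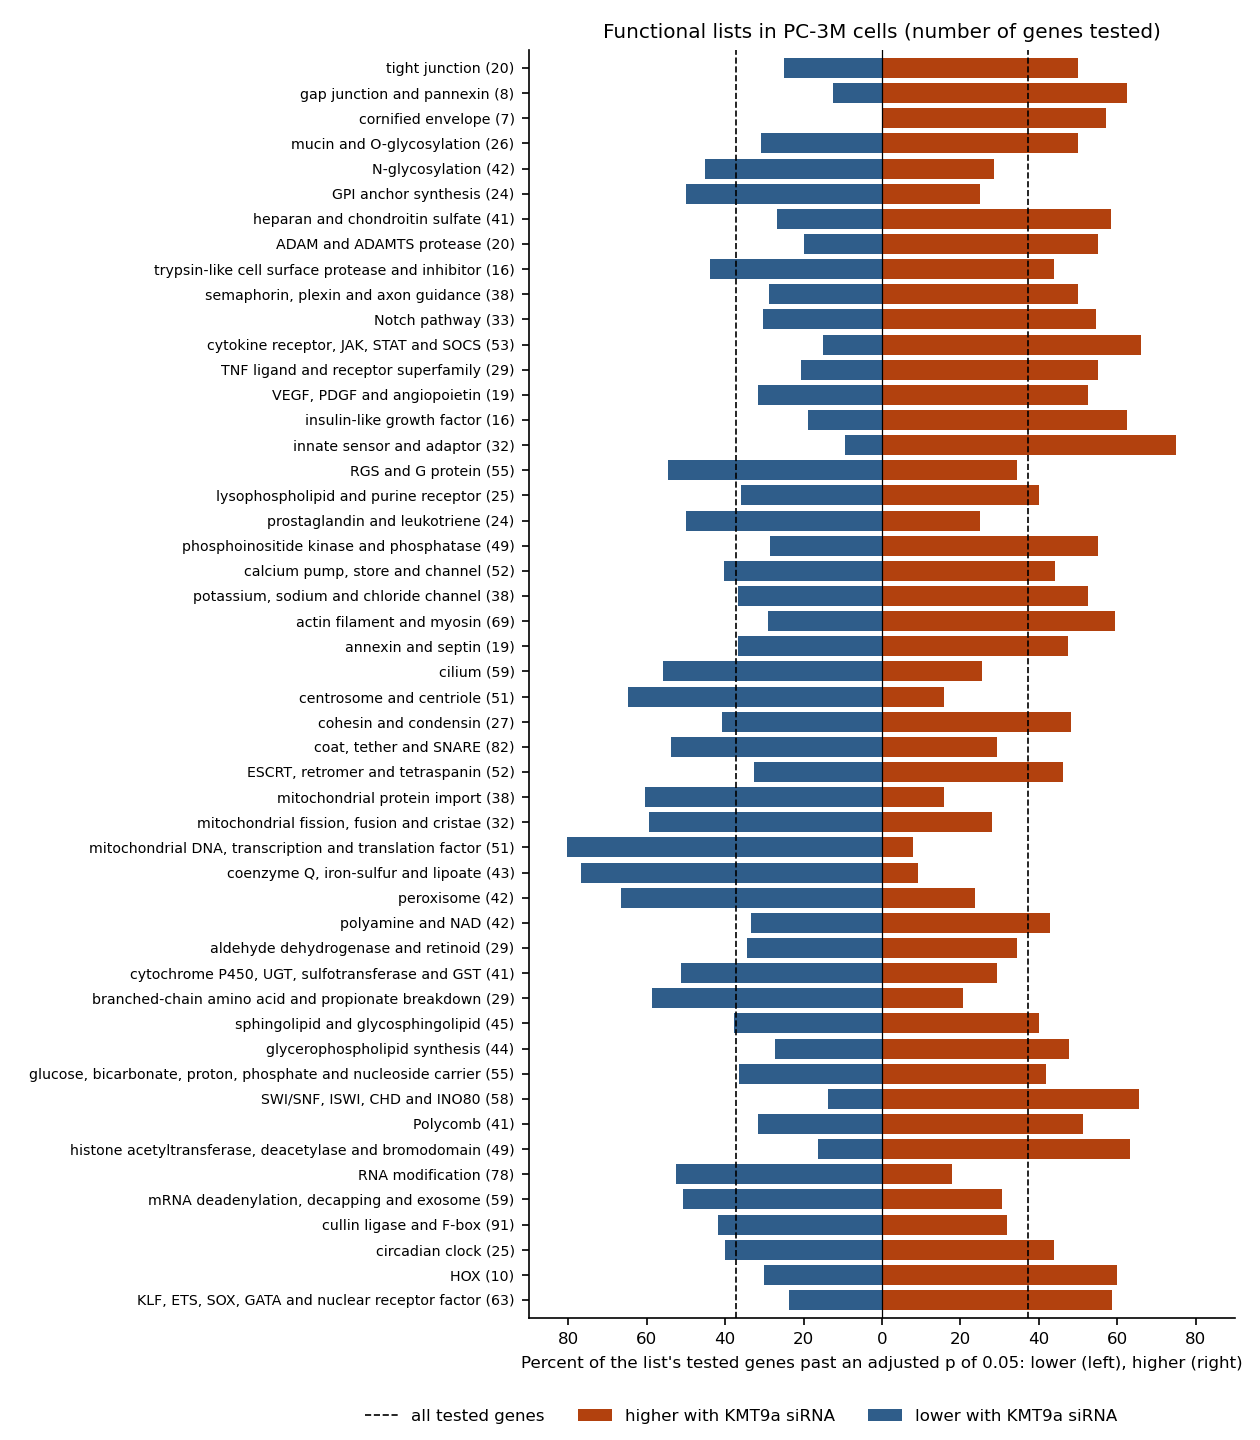
Percent of the tested genes of the functional lists that passed an adjusted p of 0.05, higher with KMT9a siRNA to the right and lower to the left; the number of tested genes stands in brackets. Dashed lines mark all tested genes, 37.2% higher and 37.3% lower. Of 32 innate sensors 24 are higher, and mitochondrial DNA, transcription and translation factors 80.4% lower.

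At the cell surface, genes of heparan and chondroitin sulfate, sugar chains that bind growth factors, were 24 higher and 11 lower of 41 (median 0.53). SULF2, a secreted sulfatase that removes sulfate groups from heparan sulfate, stood at 444, 472 and 401 CPM with KMT9a siRNA and at 49.7, 48.7 and 51.3 CPM with control siRNA. The core protein gene SDC4 stood at 236, 236 and 234 CPM with KMT9a siRNA, against 58.5, 59.5 and 61.95 CPM with control siRNA, and DSEL rose by 2.57. The glypican genes GPC4 (-2.28) and GPC2 (-1.83) and EXTL3, a chain-initiating glycosyltransferase gene (-2.09), fell. ADAM and ADAMTS proteases had 11 of 20 genes higher and 4 lower; besides ADAM19, the sheddase gene ADAM10 stood at 63.7 ± 3.35 CPM with KMT9a siRNA and 20.9 ± 1.5 CPM with control siRNA (SD, n = 3), and ADAM15 rose by 1.30. Among trypsin-like surface proteases and their inhibitors 7 were higher and 7 lower of 16, the higher ones including the inhibitor genes SLPI, TFPI2 (2.82), PI3 (1.41) and SPINT2 (1.13), with the inhibitor gene SPINK5 lower (-1.85). Gap junction genes were 5 higher and 1 lower of 8: GJB2 rose by 2.28 and GJA1, the gene of connexin 43, by 0.69, while GJA3 fell by 2.15. Of the 7 tested cornified envelope genes, which build the outer layer of squamous epithelium, 4 were higher and none lower, led by the plakin gene PPL at 150 ± 9.20 CPM with KMT9a siRNA, against 26.1 ± 0.639 CPM with control siRNA (SD, n = 3); 15 further listed genes of the envelope held too few reads to test. Tight junction genes were 10 higher and 5 lower of 20 with a median of 0.17, which was -0.0065 by library totals alone with 8 higher and 8 lower, and the abundant CLDN4 did not pass (-0.08). It passed as lower by library totals alone (-0.26, adjusted p = 0.00159, limma) and without KMT9a siRNA replicate 2 (-0.15, adjusted p = 0.000835, limma).

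The enzymes that build glycans moved in both directions. Mucin-type O-glycosylation had 13 of 26 genes higher and 8 lower, and the polypeptide GalNAc transferases, which start the chain, divided: GALNT10 (2.03), GALNT4 (1.81) and GALNT7 (0.96) rose and GALNT5 (-2.49) fell. GCNT2, which branches the chains, fell to 15.5 ± 1.09 CPM with KMT9a siRNA, against 72.9 ± 4.27 CPM with control siRNA, and the transmembrane mucin gene MUC13 to 2.68 ± 0.426 CPM with KMT9a siRNA, against 15.2 ± 0.0223 CPM with control siRNA (SD, n = 3). N-glycosylation had 12 of 42 genes higher and 19 lower, and 8 higher and 27 lower by library totals alone. Its late branching and fucosylation genes MGAT4B and FUT8 rose by 1.94 and 1.47, MGAT4B to 562, 639 and 520 CPM with KMT9a siRNA, against 151, 148 and 147 CPM with control siRNA. ALG12, ALG9 and MPDU1 of the early lipid-linked steps fell by 1.17, 0.89 and 0.88, and ALG3 of the same steps rose by 0.86. Genes of the glycosylphosphatidylinositol anchor were 12 lower and 6 higher of 24, with PIGC at -1.29 and the abundant remodelling enzyme gene PGAP1 at 0.80.

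Second-messenger genes were divided. Of 55 genes of heterotrimeric G proteins, their regulators and cyclic nucleotide enzymes, 19 were higher and 30 lower (median -0.27). The phosphodiesterase genes moved apart, PDE10A rising by 1.06 and PDE8A by 0.99 and PDE4D falling by 1.36, and PRKAR2B, a regulatory subunit of protein kinase A, fell to 2.98 ± 0.152 CPM with KMT9a siRNA, against 13.6 ± 1.05 CPM with control siRNA (SD, n = 3). Prostaglandin and leukotriene genes were 6 higher and 12 lower of 24 (median -0.43). HPGD, the enzyme that inactivates prostaglandins (chromosome 4, 175411328 to 175443792), averaged 19.7 ± 1.93 CPM with KMT9a siRNA and 165 ± 6.40 CPM with control siRNA (SD, n = 3), a log2 fold change of -3.07. The receptor genes of the pathway moved in opposite directions, with PTGFR at 2.17 and PTGER2 at -2.30. Phosphoinositide kinases and phosphatases were 27 higher and 14 lower of 49; PIK3C2B and PIK3IP1, an inhibitor of phosphoinositide 3-kinase, rose by 1.64 and 1.79. Calcium genes were 23 higher and 21 lower of 52, and 11 were higher and 11 lower by at least 2-fold. Potassium, sodium and chloride channels were 20 higher and 14 lower of 38, and 15 higher and 15 lower by library totals alone; the calcium-activated potassium channel gene KCNN4 rose to 39.6 ± 3.63 CPM with KMT9a siRNA, against 4.37 ± 0.423 CPM with control siRNA, and the background potassium channel gene KCNK2 fell to 2.41 ± 0.394 CPM with KMT9a siRNA, against 16.1 ± 0.573 CPM with control siRNA (SD, n = 3). The receptor gene S1PR1 rose by 3.15 and S1PR2 fell by 0.89, both receptors of sphingosine 1-phosphate, while SPHK1, the kinase that makes this lipid, rose to 79.3 ± 14 CPM with KMT9a siRNA, against 10.9 ± 0.436 CPM with control siRNA (SD, n = 3).

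Actin genes rose more often than they fell, and centrosome and cilium genes fell more often than they rose. Of 69 actin filament and myosin genes 41 were higher and 20 lower (median 0.41). TPM4, a tropomyosin gene (chromosome 19, 16178317 to 16213813), stood at 1125, 1134 and 1154 CPM with KMT9a siRNA and at 167, 168 and 172 CPM with control siRNA. The actin-bundling gene LCP1 and WASF2, of the complex that activates branched actin growth, rose by 2.77 and 2.45, and ACTG1, cytoplasmic gamma actin, by 0.87. CAPZA1, a subunit of the capping protein, fell to 42.5 ± 2.40 CPM with KMT9a siRNA, against 166 ± 1.85 CPM with control siRNA (SD, n = 3), and ARPC5, a subunit of the Arp2/3 complex, by 1.81 on the log2 scale. ANXA2, a membrane-binding annexin gene (chromosome 15, 60639350 to 60690185), averaged 2014 ± 18.1 CPM with KMT9a siRNA and 260 ± 3.15 CPM with control siRNA (SD, n = 3), and ANXA10 and ANXA3 rose by 2.56 and 1.68, while ANXA6 fell by 1.00 (annexin and septin list: 9 higher and 7 lower of 19).

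Of 51 centrosome and centriole genes 8 were higher and 33 lower (median -0.49; 5 higher and 36 lower by library totals alone), none of the higher by 2-fold. PLK4, the kinase that starts centriole duplication, stood at 2.67 ± 0.853 CPM with KMT9a siRNA and 11.1 ± 0.607 CPM with control siRNA (SD, n = 3), its partner gene STIL fell by 1.53 and the centrin gene CETN3 by 1.6, while PCNT, of the pericentriolar material, rose by 0.67. Cilium genes were 15 higher and 33 lower of 59 (median -0.44), with TTC21B (-2.28), BBS9 (-1.84) and IFT27 (-1.69) lower and IFT80 (1.55) higher, all of them parts of intraflagellar transport or the BBSome. Cohesin and condensin genes were 13 higher and 11 lower of 27. The condensin genes NCAPH and NCAPG fell by 2.03 and 1.77 and the cohesin regulator gene CDCA5 by 2.17, whereas SMC4, a core subunit of the same condensins, rose by 0.92, and the cohesin gene STAG2 and the cohesin loader gene NIPBL rose by 1.02 and 0.79.

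In vesicle traffic, coats, tethers and SNARE proteins were 24 higher and 44 lower of 82 (median -0.18), and 17 higher and 51 lower by library totals alone. SEC23A, of the coat that carries cargo out of the endoplasmic reticulum (chromosome 14, 39501123 to 39572437), averaged 78.3 ± 2.09 CPM with KMT9a siRNA and 348 ± 7.27 CPM with control siRNA (SD, n = 3). COPG1, of the coat that returns cargo from the Golgi apparatus, fell by 1.31, and CLTC, the clathrin heavy chain, rose by 1.23. Endosomal sorting, retromer and tetraspanin genes were 24 higher and 17 lower of 52, a split that was 15 higher and 25 lower by library totals alone. Of the sorting complexes, TSG101 fell to 35.1 ± 1.1 CPM with KMT9a siRNA, against 112 ± 1.96 CPM with control siRNA (SD, n = 3), VPS25 by 1.22 and MVB12B by 2.05, and VPS37B rose by 1.42; SDCBP, the gene of syntenin, and SNX3 rose by 1.5 and 1.93.

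Genes that maintain mitochondria fell in most cases. Of 51 genes of mitochondrial DNA upkeep, transcription and translation, 4 were higher and 41 lower (median -0.37; 2 higher and 44 lower by library totals alone), and 3 were lower by at least 2-fold: the elongation factor gene GFM2 (-1.67), the transcription factor and rRNA methyltransferase gene TFB1M (-1.09) and SLIRP (-1.05), whose product stabilises mitochondrial mRNA together with that of LRPPRC (-0.42). Coenzyme Q, iron-sulfur cluster and lipoate genes were 4 higher and 33 lower of 43 (median -0.49). NUBPL and BOLA3, which deliver iron-sulfur clusters, fell by 1.62 and 1.52. Import of proteins into mitochondria had 6 of 38 genes higher and 23 lower (median -0.45). HSPA9, the chaperone of the import motor, averaged 257 ± 14 CPM with KMT9a siRNA and 617 ± 7.39 CPM with control siRNA (SD, n = 3), and the outer membrane translocase subunit genes parted, TOMM5 falling by 1.12 and TOMM6 rising by 1.65. Fission, fusion and cristae genes were 9 higher and 19 lower of 32 (5 higher and 20 lower by library totals alone), with the fission genes DNM1L (0.64) and MIEF1 (0.70) higher and the cristae gene MINOS1 (-1.33) and the nucleotide carrier gene SLC25A4 (-1.88) lower.

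Peroxisome genes were 10 higher and 28 lower of 42 (median -0.58), and 26.2% were lower by at least 2-fold, against 11.8% of all tested genes. The lower ones included the oxidation enzyme genes ACOX2 (-2.82), EHHADH (-2.09) and PHYH (-2.01), at 1.97 to 2.99 CPM with KMT9a siRNA and 8.36 to 14.3 CPM with control siRNA on average; FAR2, a fatty acyl reductase gene, and PEX26, of the import machinery, rose by 2.09 and 1.25. Breakdown of branched-chain amino acids and propionate had 6 of 29 genes higher and 17 lower (median -0.31). Within it ACAT1 fell to 36.7 ± 2.58 CPM with KMT9a siRNA, against 87.2 ± 2.49 CPM with control siRNA (SD, n = 3), the inhibitory kinase gene BCKDK by 1.66 and MCEE by 1.62, while the carboxylase genes MCCC1 and PCCB rose by 0.97 and 0.89.

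Among other metabolic genes, single enzymes stood out within divided lists. Aldehyde dehydrogenase and retinoid genes were 10 higher and 10 lower of 29, and 10 higher and 15 lower by library totals alone. ALDH1A3, which makes retinoic acid (chromosome 15, 101420009 to 101456830), averaged 2317 ± 75.6 CPM with KMT9a siRNA and 375 ± 16.6 CPM with control siRNA (SD, n = 3); the retinol dehydrogenase genes RDH10 and DHRS9 upstream of it rose by 1.21 and 1.43, and CRABP2, which carries retinoic acid to its receptor, and the receptor gene RARA fell by 1.84 and 0.63. Cytochrome P450, glucuronosyl-, sulfo- and glutathione transferase genes were 12 higher and 21 lower of 41. CYP1B1 rose to 113 ± 5.86 CPM with KMT9a siRNA, against 22.4 ± 0.243 CPM with control siRNA, and GSTP1, a glutathione transferase gene, fell to 20.1 ± 1.1 CPM with KMT9a siRNA, against 87.4 ± 4.27 CPM with control siRNA (SD, n = 3). The polyamine breakdown genes SMOX and SAT1 rose by 1.45 and 1.39 and ODC1, the first enzyme of polyamine synthesis, by 0.75. Of NAD and sirtuin genes, NADK2, the mitochondrial NAD kinase, and SIRT5 fell by 1.52 and 1.26. Glycerophospholipid synthesis had 21 of 44 genes higher and 12 lower, a split that was 16 higher and 19 lower by library totals alone; the phospholipase D genes PLD1 and PLD2 rose by 1.81 and 1.95 and LPIN2, a phosphatidate phosphatase gene, to 510 ± 13.7 CPM with KMT9a siRNA, against 193 ± 2.44 CPM with control siRNA (SD, n = 3), while GPAM, the first enzyme of the path, fell by 1.47. In the sphingolipid list, 18 higher and 17 lower of 45 and 13 higher and 20 lower by library totals alone, the ceramide enzyme genes ASAH1 and CERS6 fell by 1.6 and 1.34. The choline transporter gene SLC44A1, the sodium-proton exchanger gene SLC9A2 and the organic anion carrier gene SLCO1B3 rose by 3.02, 2.99 and 2.30, and the sulfate carrier gene SLC26A2 fell by 1.44.

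In the nucleus, chromatin remodelling genes of the SWI/SNF, ISWI, CHD and INO80 families were 38 higher and 8 lower of 58 (median 0.28), and 24 higher and 13 lower by library totals alone. SS18, a subunit of SWI/SNF, rose to 73.2 ± 2.36 CPM with KMT9a siRNA, against 30.6 ± 0.512 CPM with control siRNA (SD, n = 3), and the ATPase gene SMARCA4 by 0.68. RUVBL1 and RUVBL2, the paired ATPases of INO80, fell by 1.15 and 1.11 and the helicase gene HELLS by 1.77. Histone acetyltransferase, deacetylase and bromodomain genes were 31 higher and 8 lower of 49 (median 0.30), and 21 higher and 16 lower by library totals alone, with HDAC7 (1.23) and KAT2B (1.06) higher and SAP30 (-1.07) lower. Polycomb genes were 21 higher and 13 lower of 41, a split that was 16 higher and 19 lower by library totals alone. JARID2, a cofactor of the H3K27 methyltransferase complex, rose to 113 ± 5.07 CPM with KMT9a siRNA, against 30.6 ± 0.878 CPM with control siRNA (SD, n = 3), CBX2 by 1.74 and CBX8 by 1.66, and PHF19 fell by 1.1. Among KLF, ETS, SOX, GATA and nuclear receptor factors 37 of 63 were higher and 15 lower (median 0.45). ETS1 stood at 98.3 ± 0.665 CPM with KMT9a siRNA and 14.4 ± 0.695 CPM with control siRNA, and KLF5 at 191 ± 5.79 CPM with KMT9a siRNA and 38.0 ± 1.42 CPM with control siRNA (SD, n = 3), while SPDEF, a prostate epithelial ETS factor gene, fell by 1.18. Of the HOX genes, 10 held enough reads; HOXA9, HOXA10 and HOXA11 rose by 0.90, 0.80 and 0.82, and HOXA13 and the prostate gene HOXB13 fell by 0.99 and 1.1. Clock genes were 11 higher and 10 lower of 25, with the activator genes ARNTL (1.45), ARNTL2 (1.23) and NPAS2 (1.28) higher.

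Genes that act on RNA fell more often than they rose. RNA modification enzymes were 14 higher and 41 lower of 78 (median -0.22), and 7 higher and 50 lower by library totals alone. The pseudouridine synthase gene TRUB1 averaged 6.53 ± 0.745 CPM with KMT9a siRNA and 40.4 ± 1.17 CPM with control siRNA (SD, n = 3), METTL1, the tRNA guanosine methyltransferase, fell by 1.21 and DUS2 by 1.16, and the deaminase gene ADAR rose by 0.98. Messenger RNA decay genes were 18 higher and 30 lower of 59, and 13 higher and 35 lower by library totals alone. The exosome genes EXOSC5 and MPHOSPH6 and the decapping cofactor gene LSM3 fell by 2.35, 1.75 and 1.79, and TOB1, which recruits deadenylases, rose by 1.5. Cullin ligase and F-box genes were 29 higher and 38 lower of 91, and 19 higher and 51 lower by library totals alone; DTL, the substrate receptor active in S phase, fell by 2.65 and KLHL5 rose to 401 ± 30.1 CPM with KMT9a siRNA, against 129 ± 3.73 CPM with control siRNA (SD, n = 3).

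Members of 10 protein families, picked after their values were seen, were set side by side. CALM2 and CALM3 encode the same protein, calmodulin. CALM2 stood at 406, 354 and 429 CPM with KMT9a siRNA and at 127, 133 and 129 CPM with control siRNA. CALM3 stood at 50.6, 53.0 and 48.1 CPM with KMT9a siRNA, against 182, 176 and 176 CPM with control siRNA. The log2 fold changes were thus 1.61 for CALM2 and -1.81 for CALM3, each without overlap of the groups. Calcineurin, the phosphatase that calmodulin activates, has 3 catalytic subunit genes, of which PPP3CA rose by 0.72, PPP3CB fell by 1.63 and PPP3CC did not pass (-0.10, and -0.27 with adjusted p = 0.00841 by library totals alone, limma). AKT1 fell to 41.0, 48.4 and 39.0 CPM with KMT9a siRNA, against 132, 129 and 136 CPM with control siRNA, and AKT2 fell by 0.25 with overlapping groups. PIP4K2A rose by 1.82 and PIP4K2B fell by 1.24, while PIP4K2C was at 0.19 and at 0.014 by library totals alone, where it did not pass. All 4 tropomyosin genes rose by their main rows, by 2.75 for TPM4, 1.28 for TPM3, 1.23 for TPM2 and 0.41 for TPM1. Some early-ending rows of TPM1, lower relative to its main row, moved little or fell. They averaged 10.5, 12.1 and 13.6 CPM with KMT9a siRNA, against 12.0, 12.7 and 13.15 CPM with control siRNA. Of the LRRC8 genes, which form the volume-regulated anion channel, the obligatory subunit gene LRRC8A rose by 1.96, LRRC8D by 1.90, LRRC8C by 1.33 and LRRC8E by 0.52, and LRRC8B was at 0.24 and at 0.068 by library totals alone, where it did not pass. SEC23A fell further than its paralog SEC23B (-0.41). BCL7A and BCL7B, of SWI/SNF, rose by 1.55 and 1.54 and BCL7C fell by 0.91. All 3 ZFP36 genes, whose products destabilise AU-rich mRNA, rose, ZFP36L2 by 2.18, ZFP36L1 by 1.5 and ZFP36 by 0.51. Of the BET bromodomain genes BRD2 rose to 763 ± 8.4 CPM with KMT9a siRNA, against 274 ± 6.47 CPM with control siRNA (SD, n = 3), and BRD3 fell by 0.55. Paralogs with near-identical exons can exchange reads, and how such reads were counted is not given in the sources used here.

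**Figure D3:**
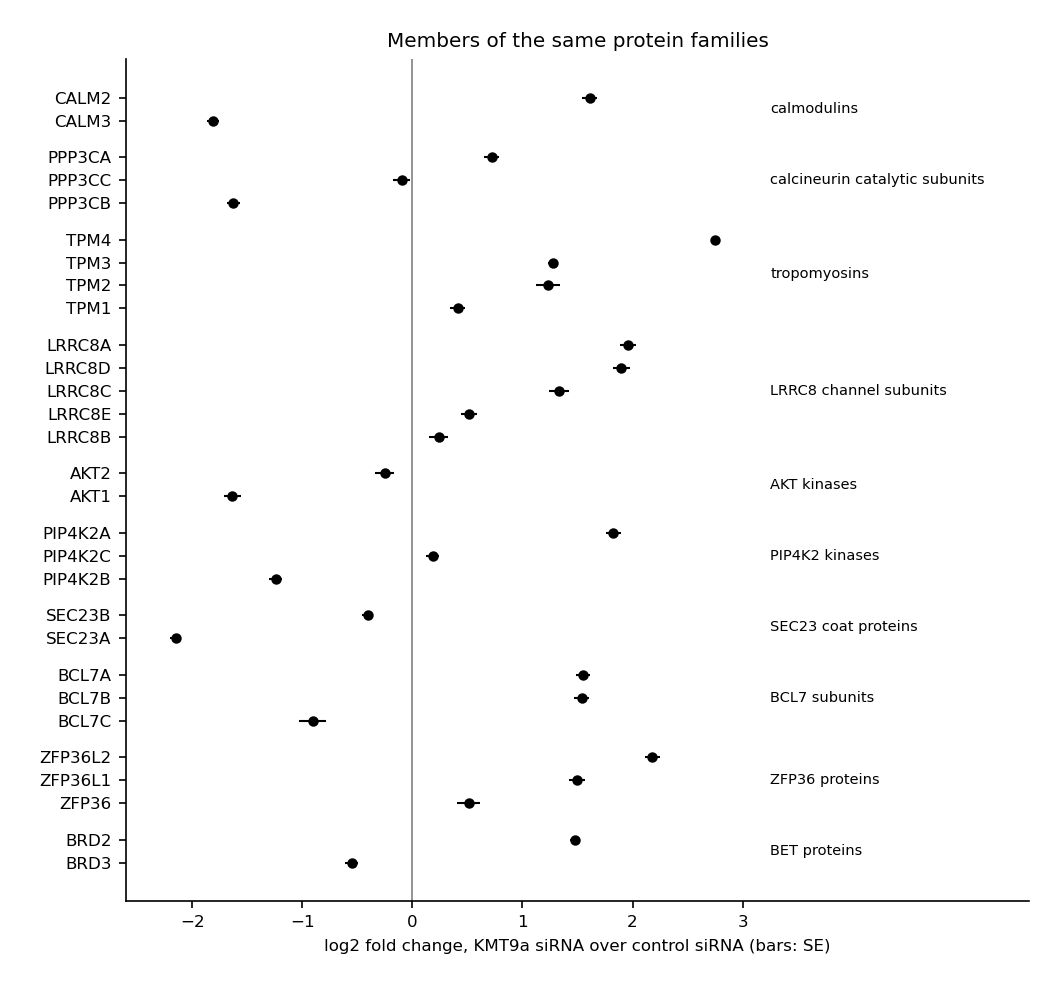
Log2 fold change of the scaled value plus 1, KMT9a siRNA over control siRNA, for members of 10 protein families; bars are standard errors from 3 libraries a group. CALM2 (1.61) and CALM3 (-1.81), which encode the same protein, lie on opposite sides of 0, and the 4 tropomyosins and 5 LRRC8 subunits lie above it.

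Transcripts of the same gene were compared within libraries, as the log2 level of each further transcript row minus that of the main row of its symbol. Of 10770 such rows of 5537 symbols, 1012 (9.4%) differed between the groups at an adjusted p under 0.05 (limma, Benjamini-Hochberg over these rows), 499 higher and 513 lower relative to the main row, in 646 symbols. Without any 1 of the control siRNA libraries the count was 531 to 571. A difference of at least 1 log2 unit was found in 72 rows (0.669%) of 45 symbols. Rows of a gene share the reads of shared exons, so that the median absolute difference was only 0.00941 and differences are understated. KIF1B, which encodes kinesin motors of mitochondria and vesicles, had a short row at 24.4, 21.8 and 26.5 CPM with KMT9a siRNA and at 48.4, 50.4 and 51.9 CPM with control siRNA, while its main row was at 78.0, 81.4 and 80.9 CPM with KMT9a siRNA, against 46.5, 43.4 and 46.5 CPM with control siRNA. The 2 rows of KIF1B thus moved in opposite directions without overlap of the groups, and their difference was -1.87 (adjusted p = 0.00054, limma). WTAP, of the m6A methyltransferase complex, had short rows at 27.5 ± 1.14 and 30.0 ± 0.849 CPM with KMT9a siRNA, against 53.0 ± 0.942 and 56.0 ± 1.20 CPM with control siRNA, and a main row at 86.2 ± 3.75 CPM with KMT9a siRNA, against 56.2 ± 1.34 CPM with control siRNA (SD, n = 3). In ENSA, the gene of a mitotic phosphatase inhibitor, a row that ends further downstream stood at 113 ± 2.77 CPM with KMT9a siRNA and 55.2 ± 0.951 CPM with control siRNA, and the main row at 97.0 ± 1.34 CPM with KMT9a siRNA and 177 ± 1.92 CPM with control siRNA (SD, n = 3). Another row of ENSA, which ends at least 1000 bases before the main row, was also higher relative to it, by 1.23 (adjusted p = 4.06e-05, limma), at 37.2 ± 0.435 CPM with KMT9a siRNA and 29.0 ± 0.375 CPM with control siRNA (SD, n = 3). IQSEC2, an exchange factor gene, had its main row at 5.29 ± 0.625 CPM with KMT9a siRNA, against 23.0 ± 0.978 CPM with control siRNA, and a row with an end further downstream at 13.2 ± 0.678 CPM with KMT9a siRNA, against 3.251 ± 0.453 CPM with control siRNA (SD, n = 3). That row also starts further upstream than the main row. Another late-ending row of IQSEC2, with the start of the main row, stood at 13.7 ± 0.794 CPM with KMT9a siRNA. With control siRNA it stood at 6.54 ± 0.227 CPM (SD, n = 3). In 47 rows of 30 symbols the row and its main row each passed the threshold in opposite directions.

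The direction of these differences went with where a row ends, a grouping chosen after the differences had been seen. Of 995 rows that end at least 1000 genomic bases before the end of their main row, 41 (4.12%) were higher and 238 (23.9%) lower relative to it, in 33 and 150 symbols. Of 349 rows that end at least 1000 bases after it, 63 (18.1%) were higher and 29 (8.31%) lower, in 45 and 21 symbols. Among the 9426 rows that end within 1000 bases, 4.19% were higher and 2.61% lower, in 262 and 175 symbols. With differences of at least 1 log2 unit, rows that end early were 10 higher and 46 lower, in 7 and 29 symbols, and rows that end late 14 higher, in 9 symbols, and 0 lower. Rows of 1 symbol overlap and are not independent. TMPO, which encodes nuclear lamina proteins, had an early-ending row at 13.9 ± 1.40 CPM with KMT9a siRNA and 57.2 ± 0.650 CPM with control siRNA and a main row at 40.9 ± 3.67 CPM with KMT9a siRNA and 74.1 ± 1.48 CPM with control siRNA (SD, n = 3). The early-ending row of ABCC5, a transporter of cyclic nucleotides, stood at 40.6 ± 0.851 CPM with KMT9a siRNA, against 52.3 ± 2.09 CPM with control siRNA, and its main row at 128 ± 4.01 CPM with KMT9a siRNA, against 72.8 ± 1.65 CPM with control siRNA (SD, n = 3). CSTF3, of the factor that stimulates cleavage of mRNA at its end, had early-ending rows lower relative to its main row by 0.78. Of 27 genes of mRNA end cleavage, listed after this pattern was seen, 16 were higher and 7 lower (median 0.19). Among them SCAF8 and PCF11, which act on transcript ends, rose by 1.09 and 0.68. The cleavage factor genes CPSF3 and CPSF2 fell by 0.84 and 0.71, and the stimulation factor genes CSTF1 and CSTF2 by 0.84 and 0.77. Related genes moved the other way: CSTF3 rose by 0.48, CSTF2T by 0.19, CPSF7 by 0.42 and CPSF6 by 0.20. CPSF1 and CPSF4 did not pass. SNRPC, of the U1 particle that blocks early ends, fell by 0.89. The part of these genes in the row differences was not tested.

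**Figure D4:**
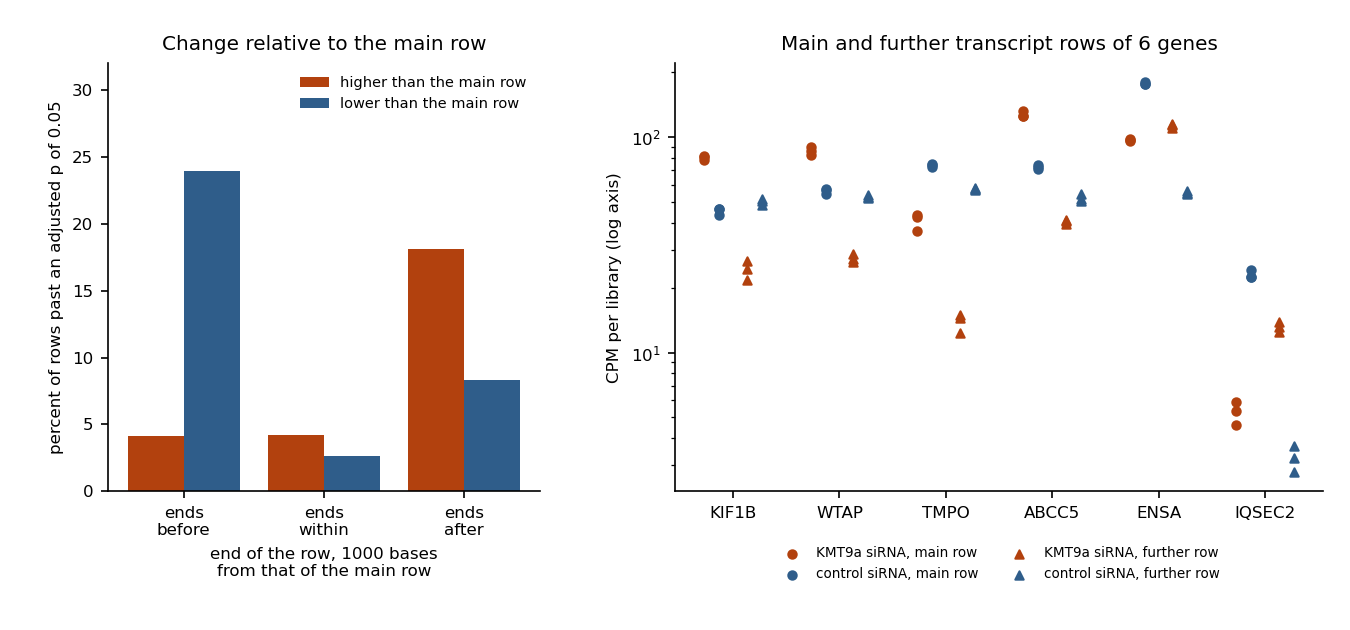
Left, percent of further transcript rows that were higher or lower than their main row with KMT9a siRNA over control siRNA (adjusted p under 0.05), by where the row ends. Right, CPM on a log axis in each of 3 libraries a group for the main row (circles) and a further row (triangles) of 6 genes, KMT9a siRNA left of control siRNA. Early-ending rows are 4.12% higher and 23.9% lower, and late-ending rows 18.1% higher and 8.31% lower.

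Properties of the genes went with the direction as well. With tested genes in 5 equal groups by transcript length, the share of higher genes was 26.6% in the shortest, up to 1590 bases, and then 32.3%, 34.9%, 42.5% and, from 4880 bases, 49.8%. The share of lower genes over the same groups was 43.5%, 40.7%, 37.3%, 34.4% and 30.4%. In 5 equal groups by mean CPM, 27.4% of the lowest group and 46.5% of the highest were higher, and 24.8% and 37.8% were lower. The median SE was 0.294 log2 units in the lowest group and 0.0552 in the highest. By GC content, known for 14039 genes, the higher share lay between 32.4% and 40.4% without an order over 5 groups of rising GC content. Pseudogenes were 42.3% higher and 18.8% lower of 388, and snoRNAs 22.9% higher and 3.47% lower of 144. Over the chromosomes the higher share ran from 30.8% on chromosome 16 to 46.5% on chromosome 18.

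**Figure D5:**
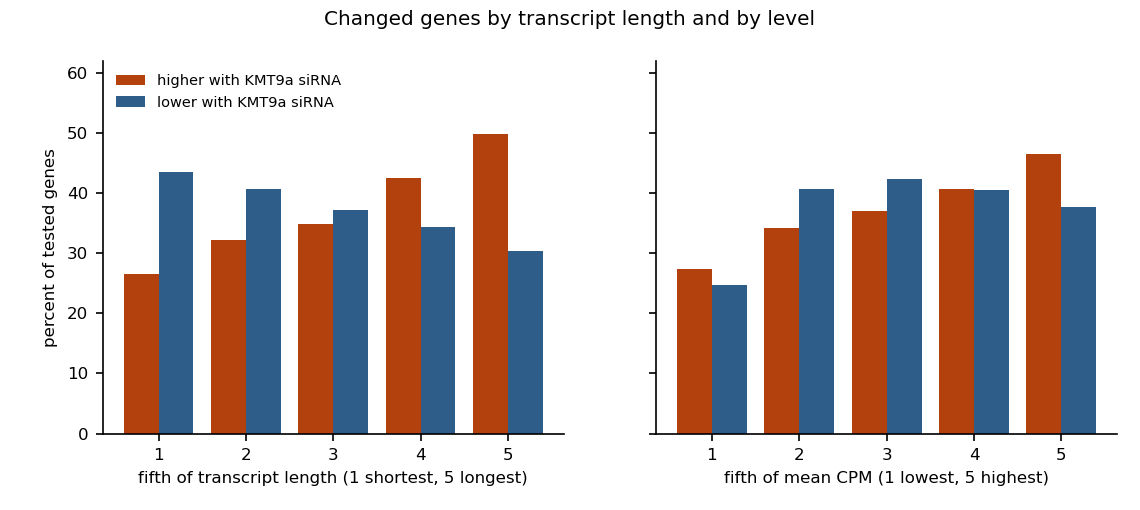
Percent of tested genes higher or lower with KMT9a siRNA (adjusted p under 0.05) in 5 equal groups by transcript length (left) and by mean CPM (right), each with 2991 or 2992 genes. The higher share goes from 26.6% to 49.8% with length, and the lower share from 43.5% to 30.4%.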

How the data were processed

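RNA-seq libraries of PC-3M cells were used, 3 with KMT9a siRNA and 3 with control siRNA. Per the submitters' processing notes, the tools were STAR, HOMER and edgeR on build hg19; no version or setting is given in the sources used here. The deposited table of 38763 transcript rows (1182 without annotation) holds a signal per library that the authors had scaled to nearly the same total in each, as the deposited values show. Beside it stand, per the file headers, the authors' log2 fold changes and p-values. Every signal value came out as a whole multiple of 1 read end within 0.1 of a step, so reads could be recovered. No column of per-sample values lacked a sample.

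Each symbol was represented by its row with the highest mean. Symbols were filtered with filterByExpr (minimum count 10, total 15), scaled by TMM and tested with limma (trend) on log2(value + 1), with Benjamini-Hochberg adjustment over 14958 genes and a threshold of 0.05. In each library, further rows were tested as the log2 difference to the main row. R 4.3.3, limma 3.58.1, edgeR 4.0.16 and DESeq2 1.42.0 were used. In simulated PC-3M data (14678 genes, 197 of them changed), 71.6%, 90.9% and 100% of genes changed by 1.5, 2 and 4-fold were recovered, and 16 of 14481 unchanged genes were called. In the real libraries 74.5% of tested genes passed, far more than were changed in the simulation, so these rates need not hold there. Of 10993 tested genes past 0.05 in the authors' deposited table, 10866 also passed in the limma fit and moved the same way.

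Named genes were N6AMT1 and TRMT112, the 12 largest fold changes in each direction (adjusted p under 0.05, mean of at least 5 CPM, groups without overlap, not named in an earlier description of these data, and no unnamed loci, antisense or small RNA genes or pseudogenes), up to 3 members in each direction and the most abundant member of each list, the transcript rows with the largest differences, and up to 5 switched genes in each direction; fewer are printed, and some genes are not reported here. Members and lists were chosen with earlier results of these data known. Protein families, mRNA end cleavage genes, the classes of row ends and the examples TMPO, ABCC5 and CSTF3 were chosen after their values were seen. Intervals and floors cover counting error only. Alternatives were another scaling, pseudocount, filter, row choice, test, replicate block and each library left out.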

Additional observations from a re-analysis of the deposited data

How the results depend on the processing

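Of 353 genes named by the rules for single genes and lists, 338 stayed on the same side of the threshold under every alternative run. Most of the 353 were picked for large changes past the threshold, which favours this count. Genes picked later, such as family members, were counted only where these rules also named them. Of these, PPP3CC, PIP4K2C and LRRC8B were not in the count and crossed the threshold by library totals alone. Over all transcript rows 19819 changed, 10001 higher and 9818 lower, and 6332 by at least 2-fold, 3249 higher and 3083 lower, since more rows were tested. With a mean of at least 5 CPM, where fewer genes were tested, 2184 changed by at least 2-fold, 1129 higher and 1055 lower. Leaving out each library gave 10428 to 11815 changed genes. On recovered reads, edgeR called 11147 and DESeq2 10963 genes. The libraries share only a replicate number: same-numbered deviations correlated at -0.148, -0.227 and -0.0994, and no library correlated best with its own number. With the replicate block 10949 genes changed, and further rows that differed from their main row numbered 444, against 1012 without the block. Rows ending early were then 27 higher and 149 lower, against 41 and 238.

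Leaving out each library gave 531 to 1173 differing rows, with 27 to 52 early-ending rows higher and 148 to 244 lower; the low ends came without control siRNA libraries. The rows differing by at least 1 log2 unit numbered 54 to 69, and 33 where both rows had a mean of at least 5 CPM, where fewer rows were tested. By library totals alone the sign turned for GANAB (-0.159), GNAS (-0.122), MKKS (-0.089), CIAO1 (-0.115) and NSUN2 (-0.0324). GANAB ranged from -0.0166 to 0.0216 with a library left out. By library totals alone the median turned below 0 for the lists of lysophospholipid receptors (-0.0975), calcium (-0.0585), cohesin and condensin (-0.0656), endosomal sorting (-0.0865), polyamine and NAD (-0.108), sphingolipid (-0.0789), glycerophospholipid (-0.0951), carriers (-0.119) and clock genes (-0.0582). Without KMT9a siRNA replicate 2 that of annexins and septins was -0.0775. Depth limits low genes most: the median SE was 0.294 log2 units in the lowest of 5 groups by level.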

Other observations

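Some changed genes stood next to each other. Runs of at least 4 consecutive tested coding genes that all changed by at least 2-fold in the same direction were searched after the gene results had been seen, and 19 were found; how many such runs arise among genes in random order was not tested. On chromosome 2 IL1A, IL1B, IL1RN, PSD4 and PAX8 (hg19, 113531492 to 114036498) were higher by 1.13 to 3.61 on the log2 scale; the first 3 encode cytokines of the interleukin-1 family and their antagonist. On chromosome 1 S100A3, S100A2, S100A16 and S100A14, calcium-binding protein genes (153519809 to 153588790), were higher by 1.21 to 2.41. On chromosome 6 PSMB8 and TAP1, which make and carry peptides for antigen presentation, HLA-DMA, BRD2 and COL11A2 were higher by 1.25 to 3.07.

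Runs of lower genes held PLCG2, SDR42E1, HSD17B2 and MPHOSPH6 on chromosome 16 (81812899 to 82203829), with log2 fold changes of -3.43 to -1.75, and DSN1, SOGA1, TLDC2, SAMHD1 and RBL1 on chromosome 20 (35380194 to 35724410), with -1.85 to -1.19. The longest runs, 22 gamma protocadherin genes on chromosome 5 and 9 UGT1A genes with HJURP and TRPM8 on chromosome 2, consist mostly of genes that share exons and therefore reads, so their members are not separate measurements.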
